A study of Mus musculus with 4 samples.

Results

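A set of S100, annexin and galectin genes was examined in 3 mouse cell lines by CapSeq, a single-cell RNA-seq method in which cells are barcoded inside capsules by split-pool rounds. The set held 10 genes of the 33565 listed: the S100 genes S100a4, S100a6, S100a10, S100a11 and S100a13, the annexin genes Anxa1, Anxa2 and Anxa5, and the galectin genes Lgals1 and Lgals3. They were picked by symbol with their levels in the 3 lines already known, including the sizeable levels of S100a6 and Lgals1 in N2a cells. The levels and ratios between lines are therefore a description of the chosen genes and support nothing by themselves. All 10 genes were detected, and all 10 reached 10 CPM (a gene's UMIs scaled to the same total in every line) in at least 1 line.

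S100 proteins are small calcium sensors with EF-hand motifs that bind and regulate target proteins when calcium rises. Annexins bind negatively charged phospholipids in a calcium-dependent way and take part in membrane organization, exocytosis and the repair of plasma membrane wounds. Galectins are lectins that bind beta-galactosides on glycoproteins and act both outside the cell and on damaged inner membranes. The 3 families meet at the membrane: S100a10 forms a complex with Anxa2, S100a11 binds Anxa1, and S100a4 and S100a6 are long known from fibroblasts and other mesenchymal cells.

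N2a (Neuro-2a) cells come from a mouse neuroblastoma, NIH/3T3 cells are fibroblasts from mouse embryos, and E14TG2a was the embryonic stem cell line (mESC). On the plate for BC1, the barcode segment that marks the sample, columns 1 to 4 held N2a, columns 5 to 8 held NIH/3T3 and columns 9 to 12 held mESCs. N2a and NIH/3T3 cells were grown in DMEM with 10% FBS, whereas mESCs were grown on gelatin with 15% FBS, leukemia inhibitory factor, 3 µM CHIR99021 (a GSK3 inhibitor) and 1 µM PD0325901 (a MEK inhibitor). Line and culture medium therefore cannot be told apart in any comparison with mESCs. The lines were pooled and told apart by BC1, and each was 1 sample, so no test between lines was possible and no p-value is given.

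Barcodes were used as cells from 1000 UMIs upward if no more than 20% of these were mitochondrial, which gave 2323 N2a cells, 2037 NIH/3T3 cells and 2137 mESCs. Their median depth was between 4803 and 6185 UMIs per cell, and the UMIs summed over cells came to 17955221, 11697865 and 12322098. Levels are CPM of these sums with exact Poisson 95% intervals, which cover counting error only. No barcode with UMIs was shared between the 3 matrices (0 barcodes). The split of reads by BC1 fixes this in advance, so it is no check on the lines. A list of 6 fibroblast genes (Col1a1, Col1a2, Col3a1, Cav1, Prrx1 and Twist1) summed to 1420 CPM in NIH/3T3 cells, 1.78 CPM in N2a cells and 5.84 CPM in mESCs, and a list of pluripotency genes to 4599 CPM in mESCs against 12.0 and 16.5 CPM in N2a and NIH/3T3 cells. The neuroblast list was less clear, at 475.7 CPM in N2a cells, 5.73 CPM in NIH/3T3 cells and 71.8 CPM in mESCs, and a pair of its genes stayed below 1 CPM in N2a cells. Hand2 alone gave 404.2 CPM of the N2a sum. Ddc (57.1 against 0.835 CPM) and Gata3 (8.44 against 3.84 CPM) were higher in mESCs than in N2a cells.

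NIH/3T3 cells carried by far the most transcripts of the 10 genes. The sum was 9772 CPM (95% interval 9716 to 9829) in NIH/3T3 cells, 1423 CPM (1406 to 1441) in N2a cells and 261.7 CPM (252.8 to 270.9) in mESCs, or 0.977%, 0.142% and 0.0262% of all UMIs. By family, the 5 S100 genes summed to 5664, 934.5 and 157.6 CPM in NIH/3T3, N2a and mESCs, the 3 annexins to 1274 and 25.2 CPM in NIH/3T3 and N2a with only 210 UMIs in mESCs (interval 14.8 to 19.5 CPM), and the 2 galectins to 2835, 463.8 and 87.1 CPM. The line order of these sums was the same in all 3 families, but N2a stood well above mESCs only in the S100 and galectin sums. Each N2a sum came mostly from 1 gene: S100a6 (13259 of 16779 UMIs), Anxa5 (348 of 452) and Lgals1 (8247 of 8328). The order did not hold for every gene. S100a11, Anxa1, Anxa2 and Lgals3 were measured higher in mESCs than in N2a cells, and S100a13 was highest in mESCs. In single cells, the sum ranged from 5805 CPM at the 10th percentile to 14325 CPM at the 90th in NIH/3T3 cells, from 475.5 to 2527 CPM in N2a cells, and from 0 to 657.4 CPM in mESCs. No NIH/3T3 cell lacked a UMI of the set (0 of 2037), against 111 of 2323 N2a cells and 787 of 2137 mESCs.

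**Figure D1:**
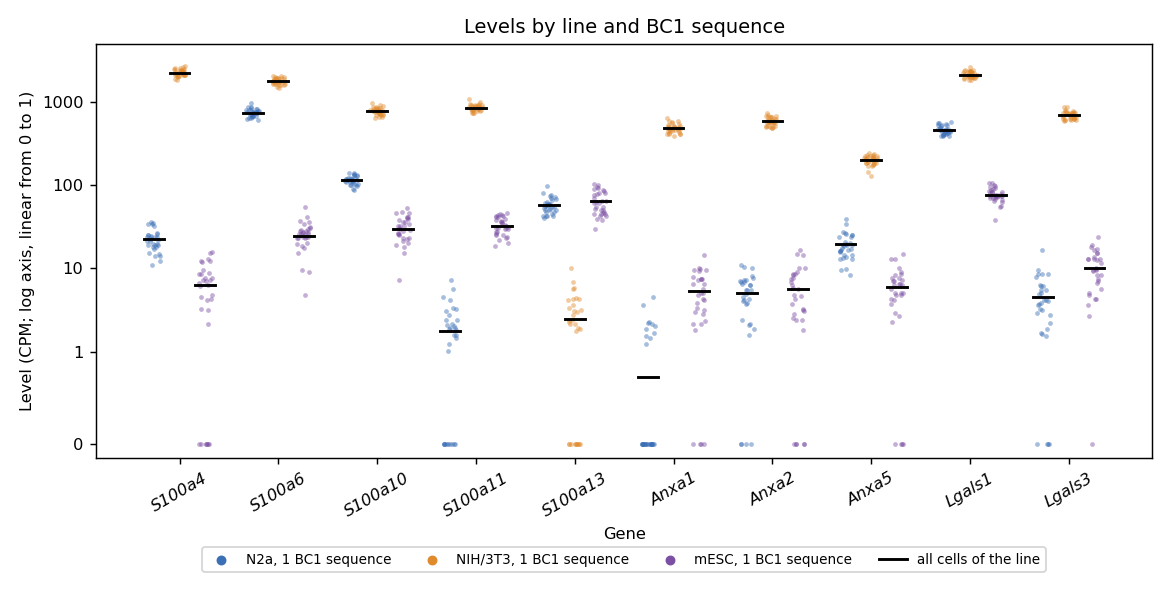
Levels of the 10 genes in CPM (vertical axis, logarithmic above 1 and linear from 0 to 1) for N2a, NIH/3T3 and mESCs, with 1 point for each of the 32 BC1 sequences of a line and a bar for all cells of the line. The NIH/3T3 points lie above all points of both other lines for 9 genes, and below them for S100a13.

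Of the 10 genes, 9 were highest in NIH/3T3 cells, where 33.4% of the 11366 genes with at least 10 CPM in a line were highest in that line. At least 4-fold higher in NIH/3T3 than in both other lines, on CPM + 1, were 8 of the 10, against a background of 5.3%. Just inside this limit was Lgals1 at 4.64-fold, and just outside was S100a6 at 2.40-fold. At least 50-fold were S100a4, Anxa1, Anxa2 and Lgals3, 4 of 10 against 0.572% of all genes. S100a13 went the other way and was the 1 gene of the set at least 4-fold lower in NIH/3T3 than in both other lines (background 4.23%). Since the genes were picked for such levels, these shares are given side by side and nothing is read from them.

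**Figure D2:**
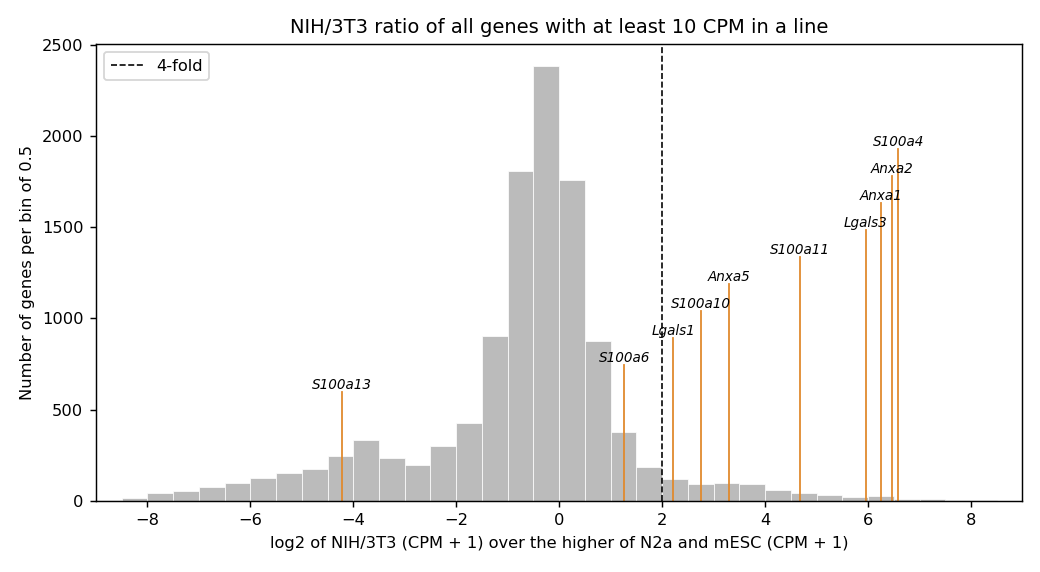
Histogram of the log2 ratio of NIH/3T3 (CPM + 1) to the higher of N2a and mESC (CPM + 1) over 11366 genes (horizontal axis, log2 ratio; vertical axis, number of genes per bin), with a line for each of the 10 genes and a dashed line at 4-fold. The heights of the gene lines only separate the names. The 10 genes run from S100a13, below 1-fold, to S100a4 at 96.4-fold.

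To check how even the levels were within a line, they were also computed for each of the 32 BC1 sequences of a line, which tag 33 to 102 cells each. BC1 sequences split 1 culture and are not biological replicates. The standard deviation over them was 9.43% of the mean for S100a4 in NIH/3T3 cells, where counting alone gives about 3.49%. For Lgals1 there it was 8.99% against 3.58%, and for S100a6 in N2a cells 10.8% against 4.91%. It was not above counting in every case, as for S100a10 in N2a cells (11.7% against 12.5%). The Poisson intervals leave such added spread out. For 9 genes every NIH/3T3 value lay above every value of both other lines (background 5.54%), and for S100a13 every NIH/3T3 value lay below them (background 2.67%). The N2a and mESC ranges did not overlap for 4 genes, S100a6, S100a10, S100a11 and Lgals1 (background 24.2%), and overlapped for the other 6.

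S100a4, also known as fibroblast-specific protein 1, binds non-muscle myosin and is linked to cell motility. The gene (ENSMUSG00000001020) lies at chr3:90511074-90513354 on the plus strand of GRCm39 and has 3 exons. It was measured at 2247 CPM (2220 to 2275) in NIH/3T3 cells, 22.3 CPM (20.2 to 24.6) in N2a cells and 6.33 CPM (5.00 to 7.90) in mESCs. NIH/3T3 was thus 96.4-fold above N2a on CPM + 1, the widest gap to the next line among the 10 genes. Over BC1 sequences the lowest, median and highest values were 1835, 2269 and 2707 CPM in NIH/3T3 cells, 11.1, 21.8 and 36.6 CPM in N2a cells and 0, 6.55 and 15.9 CPM in mESCs. The N2a and mESC ranges overlapped, although their summed intervals did not. The annotation also holds Gm42674 on the same strand over 2119 bases of S100a4, with 100% identity over 302 bases. Gm42674 is not among the genes of the deposited counts, so no UMI is assigned to it there. Whether some of the UMIs counted for S100a4 come from Gm42674 is uncertain.

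S100a6 (calcyclin), a cell-cycle-linked S100 protein that binds annexins and the adaptor Cacybp, was the member with the smallest gap between NIH/3T3 and N2a. The gene (ENSMUSG00000001025, 3 exons) lies at chr3:90520140-90535843 on the plus strand, downstream of S100a4 with only S100a5 between them. Its level was 1776 CPM (1752 to 1800) in NIH/3T3 cells, 738.4 CPM (725.9 to 751.1) in N2a cells and 24.7 CPM (304 UMIs) in mESCs. N2a cells thus had 41.6% of the NIH/3T3 level and 28.8-fold the mESC level on CPM + 1. The 3 ranges over BC1 sequences were apart, at 1469 to 2050 CPM in NIH/3T3 cells, 608.6 to 978.1 CPM in N2a cells and 4.72 to 54.7 CPM in mESCs.

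S100a10 (p11), which lacks a working calcium site and pairs with Anxa2, followed the line order of S100a4 and S100a6. It lies at chr3:93462213-93474510 on the plus strand (ENSMUSG00000041959, 3 exons) and had 781.3 CPM (765.4 to 797.5) in NIH/3T3 cells, 114.7 CPM (109.8 to 119.8) in N2a cells and 29.9 CPM (26.9 to 33.1) in mESCs. NIH/3T3 was 6.76-fold above N2a. Across BC1 sequences the values ran from 636.2 to 979.8 CPM in NIH/3T3 cells, from 87.8 to 141.4 CPM in N2a cells and from 7.23 to 53.5 CPM in mESCs, with no overlap. Stretches of 174 to 180 bases of S100a10 are at least 95.4% identical to transcripts of 5 other genes, so reads from them are uncertain. Of these genes, only Ggnbp1 and Tfcp2 are among those of the deposited counts.

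S100a11 (calgizzarin), the partner of Anxa1, was highest in NIH/3T3 like these but higher in mESCs than in N2a cells. The gene (ENSMUSG00000027907, 3 exons) spans chr3:93414382-93435293 on the plus strand, 26919 bases upstream of S100a10. NIH/3T3 cells had 857.1 CPM (840.4 to 874.0), mESCs 32.7 CPM (29.6 to 36.1) and N2a cells 1.78 CPM (1.22 to 2.52). The mESC level was 12.1-fold the N2a level on CPM + 1, a gap of at least 4-fold that 11.2% of all genes showed in this direction. Over BC1 sequences the mESC values (18.8 to 46.2 CPM) stayed above the N2a values (0 to 7.20 CPM). S100a11 has near-identical copies, the processed pseudogenes Gm12854 and Gm7665 (at least 98.7% identity over 297 bases) and Gm57150 (98.2% over 503 bases), so reads could be split between them and its level is uncertain. Gm57150 had 4, 11 and 0 UMIs in N2a cells, NIH/3T3 cells and mESCs, and the pseudogenes are not among the genes of the deposited counts.

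S100a13, which takes part in the unconventional release of FGF1 and IL-1alpha, had the reverse pattern. NIH/3T3 cells had 2.48 CPM (1.66 to 3.56), N2a cells 57.2 CPM (53.8 to 60.8) and mESCs 64.0 CPM (59.6 to 68.7). NIH/3T3 was thus 16.7-fold below N2a and 18.7-fold below mESCs on CPM + 1, while the N2a and mESC intervals overlapped. The BC1 values ran from 0 to 10.0 CPM in NIH/3T3 cells, from 40.1 to 98.3 CPM in N2a cells and from 29.7 to 102.4 CPM in mESCs. The gene (ENSMUSG00000042312) lies at chr3:90416091-90431912 on the plus strand and overlaps S100a1 on the minus strand over 3509 bases. Whether counting used the strand is not given in the sources used here, so reads of the pair cannot be told apart. S100a1, a heart and muscle S100 protein, had 4.79 CPM in N2a cells, 0.513 CPM in NIH/3T3 cells and 17.4 CPM in mESCs, and was also lowest in NIH/3T3.

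Along chromosome 3, the 15 S100a genes did not form 1 block of high NIH/3T3 level. S100a4 and S100a6 stood on either side of S100a5, which is 2450 bases from the end of S100a4 and had 0.769 CPM in NIH/3T3 cells, 0.167 CPM in N2a cells and 0 UMIs in mESCs. S100a3, upstream of S100a4, had 5.56, 2.78 and 0 CPM in NIH/3T3, N2a and mESCs. S100a8 and S100a9, the calprotectin genes of neutrophils, had 0 UMIs in all 3 lines, which allows up to 0.256 CPM in NIH/3T3 cells, 0.243 CPM in mESCs and 0.167 CPM in N2a cells.

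**Figure D3:**
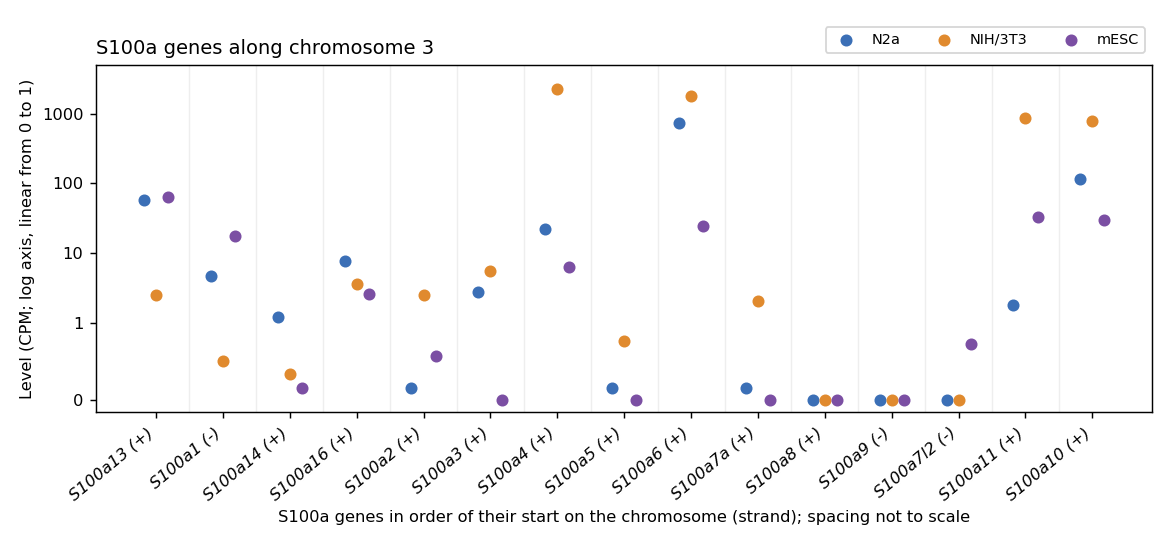
Levels in CPM (vertical axis, logarithmic above 1 and linear from 0 to 1) of the 15 S100a genes in the order of their start sites on chromosome 3 (horizontal axis, not to scale), 1 point per line. S100a4 and S100a6 are at 2247 and 1776 CPM in NIH/3T3 cells with S100a5 at 0.769 CPM between them, and S100a13 at the left end is lowest in NIH/3T3.

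The promoters of S100a4 and S100a6 are shown because these neighbours differ in their N2a level, and that of Anxa2 because it holds letters of 2 of the motifs searched. Each is the 250 bases before the start of the canonical GENCODE M39 transcript, on the gene's strand, read from GRCm39. Capitals mark motif matches.
S100a4 (chr3:90510825-90511074, plus strand): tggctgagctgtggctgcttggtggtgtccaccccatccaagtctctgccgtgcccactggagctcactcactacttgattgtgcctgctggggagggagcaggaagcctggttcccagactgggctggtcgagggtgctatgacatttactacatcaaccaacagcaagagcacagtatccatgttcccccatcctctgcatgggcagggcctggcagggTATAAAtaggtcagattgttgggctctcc
S100a6 (chr3:90519890-90520139, plus strand): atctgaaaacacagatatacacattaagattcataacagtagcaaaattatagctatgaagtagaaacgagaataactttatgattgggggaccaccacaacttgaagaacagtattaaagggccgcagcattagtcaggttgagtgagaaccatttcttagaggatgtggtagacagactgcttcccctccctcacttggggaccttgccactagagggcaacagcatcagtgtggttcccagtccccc
Anxa2 (chr9:69360652-69360901, plus strand): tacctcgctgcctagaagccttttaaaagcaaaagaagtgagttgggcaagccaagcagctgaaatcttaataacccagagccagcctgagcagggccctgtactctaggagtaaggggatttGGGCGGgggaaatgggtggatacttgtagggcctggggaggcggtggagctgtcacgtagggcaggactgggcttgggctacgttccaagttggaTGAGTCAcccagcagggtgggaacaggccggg
The motifs searched were TGANTCA (AP-1), GGAATG (TEAD) and GGGCGG (SP1) on both strands and TATAAA (the TATA box) on the gene's strand. The TATA letters stood 29 bases before the S100a4 start and in none of the other 9 promoters, and 7.74% of 32939 promoters of this length held them. The AP-1 letters occurred in Anxa2, 32 bases before the start, and in S100a11, 2 of 10 against 6.62% of all promoters. The SP1 letters occurred in Anxa2 and Lgals3 (29.2% of all promoters), and the TEAD letters in none of the 10 (12.7%). S100a6 held none of the 4. A match is only a description of the letters, and a promoter without a match says nothing about the factor.

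The 3 annexins were low outside NIH/3T3. Anxa1, a glucocorticoid-regulated annexin with anti-inflammatory action, lies at chr19:20350792-20368374 on the minus strand (ENSMUSG00000024659, 13 exons). It had 485.6 CPM (473.1 to 498.4) in NIH/3T3 cells, 5.36 CPM (4.14 to 6.81) in mESCs and 0.724 CPM (0.386 to 1.24) in N2a cells, and NIH/3T3 was 76.6-fold above mESCs on CPM + 1. The median N2a BC1 sequence held no Anxa1 UMI and the highest had 4.56 CPM, and the mESC values ran from 0 to 14.6 CPM against 396.1 to 637.2 CPM in NIH/3T3 cells. The long non-coding gene 1500015L24Rik overlaps all of Anxa1 on the other strand and had 9.40 CPM in NIH/3T3 cells.

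Anxa2, the annexin of the S100a10 complex that binds tissue plasminogen activator at the cell surface, showed no N2a to mESC difference beyond counting error. Its level was 587.7 CPM (573.9 to 601.8) in NIH/3T3 cells, 5.68 CPM (4.43 to 7.18) in mESCs and 5.07 CPM (4.08 to 6.22) in N2a cells, so that NIH/3T3 was 88.1-fold above the higher of the others. Over BC1 sequences the values were 489.7 to 745.0 CPM in NIH/3T3 cells, 0 to 16.7 CPM in mESCs and 0 to 10.9 CPM in N2a cells. The gene (ENSMUSG00000032231, 13 exons) lies at chr9:69360542-69399077 on the plus strand. S100a10, its partner, thus stayed at 14.7% of its NIH/3T3 level in N2a cells and 3.82% in mESCs, where Anxa2 was at 0.862% and 0.967% of its own.

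Anxa5, the annexin used as a probe of exposed phosphatidylserine, had the smallest ratio of the 3. It lies at chr3:36503072-36530126 on the minus strand (ENSMUSG00000027712, 13 exons), away from the S100 genes of that chromosome. NIH/3T3 cells had 200.6 CPM (192.6 to 208.9), N2a cells 19.4 CPM (17.4 to 21.5) and mESCs 6.01 CPM (4.72 to 7.54). This put NIH/3T3 9.89-fold above N2a, with BC1 values of 130.4 to 241.4 CPM against 8.36 to 39.5 CPM in N2a cells and 0 to 15.0 CPM in mESCs.

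The galectins differed from each other in N2a cells. Lgals1 (galectin-1), a dimeric galectin abundant in mesenchymal cells, had 2137 CPM (2110 to 2163) in NIH/3T3 cells, 459.3 CPM (449.4 to 469.3) in N2a cells and 76.9 CPM (72.0 to 81.9) in mESCs. N2a cells thus had 21.5% of the NIH/3T3 level and 5.91-fold the mESC level on CPM + 1. With S100a6 it was 1 of 2 genes of the set at least 4-fold higher in N2a than in mESCs, against 10.4% of all genes. The BC1 values were 1851 to 2609 CPM in NIH/3T3 cells, 390.4 to 573.6 CPM in N2a cells and 38.4 to 107.1 CPM in mESCs. Lgals1 lies at chr15:78810875-78814670 on the plus strand (ENSMUSG00000068220, 4 exons).

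Lgals3 (galectin-3), the chimera-type galectin that gathers on damaged lysosomes, was low in N2a cells. It had 697.7 CPM (682.7 to 713.0) in NIH/3T3 cells, 10.2 CPM (8.52 to 12.2) in mESCs and 4.51 CPM (3.58 to 5.61) in N2a cells, and NIH/3T3 was 62.2-fold above mESCs. The N2a range over BC1 sequences (0 to 16.6 CPM) lay inside that of mESCs (0 to 23.7 CPM), and NIH/3T3 values were 587.8 to 875.9 CPM. The gene (ENSMUSG00000050335, 6 exons) lies at chr14:47605208-47623624 on the plus strand.

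RNA carried over from NIH/3T3 could add to low levels in the other lines, so each level was set beside the fibroblast list. In N2a cells the 6 fibroblast genes were at 0 to 0.195% of their NIH/3T3 levels (Col3a1 and Twist1 had 0 UMIs). Anxa1, at 0.149%, lay inside this range and S100a11, at 0.208%, just above it, whereas Lgals3 was at 0.647% and S100a4 at 0.994%. The Anxa1 level in N2a cells, from 13 UMIs, was thus not above that of the fibroblast genes. In mESCs 4 of the 6 fibroblast genes were at 0.130 to 0.243%, with Col1a1 at 2.56% and Twist1 at 7.78%, and of the 9 genes highest in NIH/3T3 S100a4 came lowest, at 0.282%. Barcodes with under 100 UMIs were read here as mostly free RNA. In the mESC matrix, the genes of the set furthest above their level in cells there were S100a4 (38.3 against 6.33 CPM), Anxa1 (16.3 against 5.36 CPM), Anxa2 (18.2 against 5.68 CPM) and Lgals3 (31.6 against 10.2 CPM). Anxa5, with 3.83 against 6.01 CPM, and S100a13, with 61.3 against 64.0 CPM, were lower there than in cells. The share of all genes that were higher in such barcodes was not computed, so nothing is read from these values. Of the fibroblast genes, Col1a2 had 4.79 CPM in these barcodes against 0.893 CPM in mESCs, and Prrx1 3.83 against 0.812 CPM. Col1a1 had 0.958 against 0.730 CPM and Twist1 2.87 against 2.76 CPM. Cav1 and Col3a1 had 0 UMIs, against 0.568 and 0.0812 CPM in mESCs. Each of these low-barcode values rests on 5 UMIs or fewer. In the N2a matrix S100a6 was 619.6 CPM in such barcodes and 738.4 CPM in cells, and Lgals1 428.4 and 459.3 CPM. S100a10 and S100a13 were also lower in such barcodes. Higher there were Anxa2 (13.0 against 5.07 CPM), S100a4 (28.2 against 22.3 CPM), S100a11 (3.79 against 1.78 CPM, from 7 UMIs), Anxa1 (1.62 against 0.724 CPM, from 3 UMIs), Anxa5 and Lgals3. How much of each low level came from free RNA was not tested.

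The share of cells with a UMI was compared after thinning every cell to 1000 UMIs. S100a6 was found in 80.0% of NIH/3T3 cells (exact binomial 95% interval 78.2 to 81.7), 51.2% of N2a cells (49.1 to 53.2) and 2.43% of mESCs (1.82 to 3.18). Without thinning the shares were 96.8%, 89.3% and 12.1%. Lgals1 was found in 83.9% of NIH/3T3 cells (82.2 to 85.5), 35.4% of N2a cells (33.4 to 37.4) and 7.39% of mESCs (6.32 to 8.59), and unthinned in 98.1%, 81.1% and 28.7%. At full depth most N2a cells thus held a UMI of each of these genes, and the signal was not held by a few cells. As a reference, the collagen gene Col1a2 was found in 34.9% of NIH/3T3 cells, 0.0861% of N2a cells and 0.0936% of mESCs after thinning, and in 79.3%, 0.603% and 0.515% before it. Anxa1 in N2a cells (0.0861%) was at the Col1a2 share, and S100a11 in N2a cells (0.215%, 0.0699 to 0.502) had an interval that held it. S100a13 was found in 6.20% of N2a cells (5.25 to 7.26), 5.71% of mESCs (4.76 to 6.78) and 0.147% of NIH/3T3 cells (0.0304 to 0.430).

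The spread between cells was read as the variance over the mean of counts thinned to 3000 UMIs per cell, which is near 1 when cells differ by sampling alone. This left 1850 N2a cells, 1500 NIH/3T3 cells and 1574 mESCs, without 473, 537 and 563 shallower ones. Among the 10 genes in NIH/3T3 cells, Anxa1 was the most uneven for its level, at 1.61, where genes of like mean had a median of 1.14 and 95.2% of them were lower. No Anxa1 UMI was seen in 483 of 1500 NIH/3T3 cells, while the highest cell had 13. By contrast Anxa2 in the same cells had 1.10, with a median of 1.17 for genes of like mean. S100a4, with 6 UMIs in the median NIH/3T3 cell and 24 in the highest, had 1.88 against a median of 1.59, and Lgals1 1.78 against 1.55. These were above 77.1% of 35 and 72.1% of 43 genes of like mean, which include other genes of the set such as S100a6.

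In N2a cells S100a6 had a variance over mean of 1.44 against 1.28 for genes of like mean, with 2 UMIs in the median cell, 5 at the 90th percentile and 290 of 1850 cells at 0. Lgals1 had 1.38 against 1.16, with 576 of 1850 cells at 0. These values were above 75.3% and 84.4% of genes of like mean. S100a10 stood further out for its level in N2a cells, at 1.17 against 1.07, above 90.8% of genes of like mean. In mESCs S100a13 was uneven for its level, at 1.29 against 1.07, above 96.3% of genes of like mean. Lgals1 followed at 1.20 against 1.07, above 92.5% of them.

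**Figure D4:**
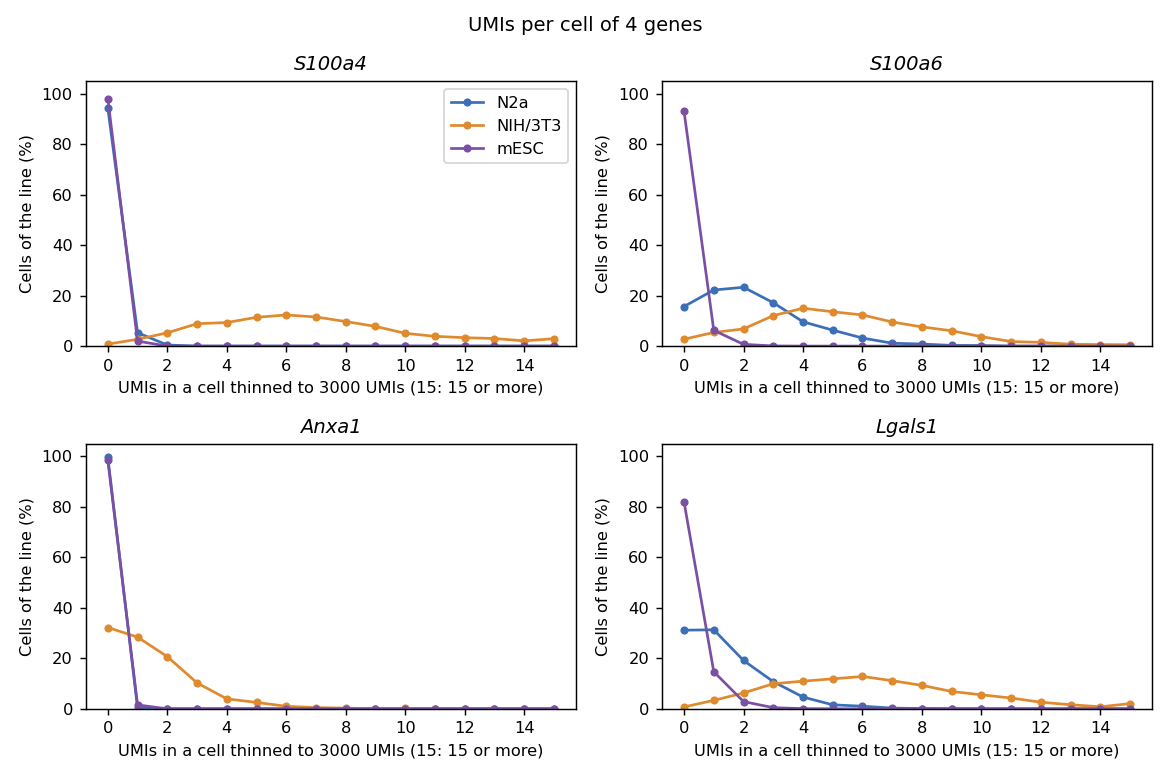
Share of cells of each line in percent (vertical axis) by the number of UMIs of S100a4, S100a6, Anxa1 and Lgals1 (horizontal axis; 15 stands for 15 or more) in cells thinned to 3000 UMIs, 1 line of points per cell line. Only 290 and 576 of 1850 N2a cells are at 0 for S100a6 and Lgals1, and Anxa1 in NIH/3T3 falls from 483 of 1500 cells at 0 to a highest count of 13.

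Within a line, the measured correlations between the genes from cell to cell were mostly low. Over the 45 pairs in 1500 NIH/3T3 cells, Pearson's r ranged from -0.0152 to 0.380 with a median of 0.0793, and 5 pairs exceeded 0.2. The highest were S100a4 with Lgals1 (0.380), S100a4 with S100a6 (0.348) and S100a6 with Lgals1 (0.332). In N2a cells the highest r was 0.150, for S100a10 with Lgals1, and in mESCs 0.0852. The cells share 1 library and were thinned to 1 depth, so these values are descriptions. Counting noise also lowers r where a gene has few UMIs per cell. The genes of the highest NIH/3T3 pairs had the highest means there, 6.87 (S100a4), 6.40 (Lgals1) and 5.40 (S100a6) UMIs per cell. In mESCs the highest mean of the set was 0.220 (Lgals1). A low r therefore does not show that genes vary independently.

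The same genes also followed the ribosomal protein genes. In NIH/3T3 cells the sum of the 10 genes had r = 0.689 with the UMIs of 100 ribosomal protein genes, in N2a cells 0.483 and in mESCs 0.0343. By gene, the NIH/3T3 values were 0.551 for Lgals1, 0.507 for S100a4 and 0.501 for S100a6. They were 0.275 for S100a11, 0.256 for S100a10 and 0.222 for Lgals3, and 0.0999 for Anxa1, 0.106 for Anxa5 and 0.122 for Anxa2. The annexins had means of 0.601 to 1.78 UMIs per cell there, against 5.40 to 6.87 for the first 3 genes. Few UMIs per cell lower r, so these values do not compare genes or lines. In N2a cells S100a6 had 0.389 and Lgals1 0.319. With cells split into 3 equal parts by ribosomal protein UMIs, from low to high, the mean sum of the 10 genes went from 22.5 over 29.4 to 37.1 UMIs per 3000 in NIH/3T3 cells, from 3.03 over 4.34 to 5.82 in N2a cells and from 0.749 over 0.770 to 0.809 in mESCs. Within these 3 parts, a split chosen after seeing the data, the r of S100a4 with Lgals1 in NIH/3T3 cells was 0.188, 0.113 and 0.281. What sets the ribosomal protein share of a cell was not tested.

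**Figure D5:**
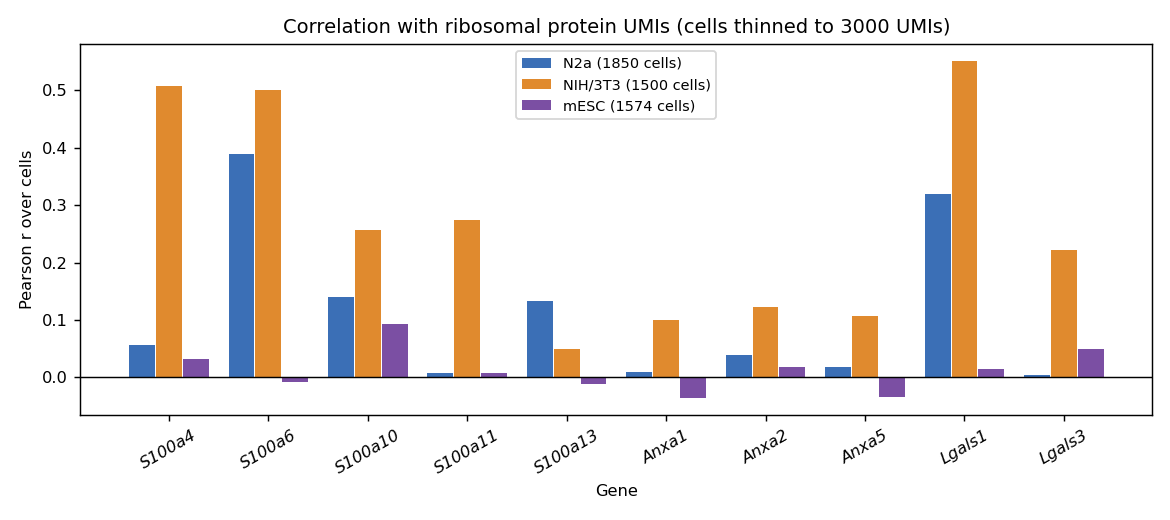
Pearson's r over cells (vertical axis, no unit) between each of the 10 genes and the summed UMIs of 100 ribosomal protein genes in N2a, NIH/3T3 and mESCs, in cells thinned to 3000 UMIs. The bars of Lgals1, S100a4 and S100a6 in NIH/3T3 cells reach 0.551, 0.507 and 0.501, and the annexin bars stay at or below 0.122.

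Likeness to other genes was measured over cells and over lines. The 5 genes with the highest r to the summed set in NIH/3T3 cells, among 4698 genes with at least 50 CPM, were all ribosomal protein genes, led by Rpl41 (0.472) and Rps12 (0.461), where the median gene had -0.0174. For S100a6 in N2a cells they were led by Rpl37 (0.259) and Rpl32 (0.255), and for Lgals1 by Rps27a (0.216) and Rpl5 (0.210), again all 5 of them ribosomal protein genes. Across the 3 lines, the gene nearest to Lgals1 by Euclidean distance of log2(CPM + 1) was Vim, the mesenchymal intermediate filament vimentin, at a distance of 0.21. Vim had 439.6 CPM in N2a cells, 1888 CPM in NIH/3T3 cells and 82.4 CPM in mESCs. Nearest to S100a6 was Ftl1, the ferritin light chain, at 1.06, with 718.2, 863.9 and 21.2 CPM in N2a, NIH/3T3 and mESCs, followed by Camk2d (1.34) and Frmd4a (1.81). Nearest to Anxa2 were Arhgap18 (1.38), Nlgn1 (1.52) and Cdk14 (1.54). With 3 lines such distances rest on 3 points each.

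The other genes of the 3 families were mostly low. Of 28 further S100, annexin and galectin genes, 19 did not reach 10 CPM in any line, and of the 9 that did, 6 were highest in NIH/3T3, 2 in N2a and 1 in mESCs. Their NIH/3T3 ratio to the next line had a median of 2.38, beside 0.761 over all 11366 genes and 17.7 over the 10 genes of the set. The 1 gene past 4-fold was Anxa3, with 222.3 CPM in NIH/3T3 cells, 0.223 CPM in N2a cells and 3.08 CPM in mESCs. Anxa6, a large annexin with a doubled core, was higher in N2a cells (121.1 CPM) than in NIH/3T3 cells (30.8 CPM) and mESCs (26.5 CPM). Anxa7, Anxa11 and Anxa4 had 103.1, 89.2 and 64.5 CPM in NIH/3T3 cells, 30.2, 3.90 and 5.85 CPM in N2a cells and 54.9, 30.9 and 16.1 CPM in mESCs. Among galectins, Lgals8 had 66.7 CPM in NIH/3T3 cells, 21.1 CPM in N2a cells and 8.93 CPM in mESCs, and Lgals9 19.3, 2.84 and 7.55 CPM. Lgals4, a galectin of gut epithelium, was lowest in NIH/3T3 at 0.598 CPM, with 19.2 CPM in N2a cells and 18.3 CPM in mESCs.

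Lists of genes that work with these proteins are given beside all 11366 genes, of which 33.4% were highest in NIH/3T3 and 5.3% passed 4-fold there, with a median ratio of 0.761. The lists were chosen with earlier results of these data known, so nothing is read from these shares. Of 13 membrane repair genes, 9 were highest in NIH/3T3 and 3 passed 4-fold, with a median ratio of 1.50. The widest ranges in this list were those of Myof (myoferlin), with 709.8 CPM in NIH/3T3 cells, 190.0 CPM in mESCs and 0.557 CPM in N2a cells, and of the caveolar genes Cav1 and Cavin1, with 233.4 and 158.2 CPM in NIH/3T3 cells against 4.79 CPM or less in the other lines. Syt7, a synaptotagmin of lysosome exocytosis, went the other way, at 23.8 CPM in N2a cells, 2.68 CPM in mESCs and 0.256 CPM in NIH/3T3 cells. Of 11 S100 and annexin partners reaching 10 CPM, 4 were highest in NIH/3T3, 5 in N2a and 2 in mESCs, with a median ratio of 0.857. Ahnak, the giant scaffold that the S100a10 and Anxa2 complex binds, had 1636 CPM in NIH/3T3 cells, 206.9 CPM in mESCs and 180.1 CPM in N2a cells, and was the 1 partner past 4-fold. The lists overlap: Ahnak is also 1 of the 3 membrane repair genes past 4-fold, beside Cav1 and Cavin1. Cav1 in turn is also on the fibroblast list. Dlc1, a protein bound by S100a10, was highest in N2a cells at 1694 CPM, with 158.5 CPM in mESCs and 4.70 CPM in NIH/3T3 cells. Plat, the tissue plasminogen activator, had 78.1 CPM in N2a cells, 6.67 CPM in NIH/3T3 cells and 1.30 CPM in mESCs, and Cdc42ep3 99.2 CPM in NIH/3T3 cells, 48.4 CPM in mESCs and 0.223 CPM in N2a cells.

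For the next list, the values over all genes were again 33.4%, 5.3% and 0.761, and nothing is read from the comparison. Of 9 galectin partners and glycan genes reaching 10 CPM, 6 were highest in NIH/3T3 and 2 passed 4-fold, with a median ratio of 1.15. These 2 were the hyaluronan receptor Cd44, with 356.2 CPM in NIH/3T3 cells, 0.891 CPM in N2a cells and 0.649 CPM in mESCs, and Trim16, with 36.0, 6.91 and 4.06 CPM. Itga5, the fibronectin receptor subunit, had 74.2 CPM in NIH/3T3 cells, 64.3 CPM in mESCs and 0.780 CPM in N2a cells. Lgals3bp, a secreted glycoprotein that binds galectins, had 20.8 CPM in N2a cells and 17.2 CPM in NIH/3T3 cells but 0.162 CPM (2 UMIs) in mESCs. The 12 other calcium sensors were split 4, 6 and 2 between N2a, NIH/3T3 and mESCs, with a median ratio of 1.03 and 0 past 4-fold. Their widest range was that of Sri (sorcin), at 105.5 CPM in NIH/3T3 cells, 29.1 CPM in mESCs and 13.4 CPM in N2a cells, followed by Efhd2 and Cib1 at 2.56- and 2.42-fold between the highest and lowest line.

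Cell cycle state went with small differences in the set. In the 20% of NIH/3T3 cells with the highest share of G2/M gene UMIs the 10 genes summed to 8970 CPM (8856 to 9085), against 10005 CPM (9940 to 10070) in the rest. Lgals1 had 1861 CPM there against 2217 CPM, S100a4 2037 against 2308 CPM, and Anxa5 200.7 against 200.6 CPM. In N2a cells the sums were 1334 and 1447 CPM, and S100a13 had 43.5 CPM (37.1 to 50.7) against 60.8 CPM (56.8 to 65.0). A lower S100a13 level in the top 20% by G2/M genes was also measured in mESCs, at 48.1 CPM (125 UMIs) against 68.3 CPM (664 UMIs). By S phase genes S100a13 was also lower in the top 20% of mESCs, at 46.4 against 67.6 CPM, but not in N2a cells, where it had 61.8 against 56.1 CPM. For the S phase list the sums in the top 20% and the rest were 9998 and 9720 CPM in NIH/3T3 cells, 1518 and 1402 CPM in N2a cells, and 214.0 and 271.4 CPM in mESCs. These groups also differed in depth, with a median of 4024 UMIs in the top 20% of mESCs by S phase genes against 5000.5 in the rest. The part of depth in these values was not tested.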

How the data were processed

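N2a cells, NIH/3T3 cells and mESCs were barcoded on 1 BC1 plate and pooled for CapSeq, 1 sample per line. Per the labels and the methods of the study, the authors split reads by BC1, trimmed the TSO, and aligned and counted reads with STARsolo on GRCm39 (GENCODE M30). They deposited raw UMI counts per gene and barcode, unnormalized and without a cell filter. The feature mode and the use of strand are not given in the sources used here.

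From these counts, barcodes from 1000 UMIs upward with no more than 20% mitochondrial UMIs were kept as cells, and UMIs were summed per line and expressed as CPM with exact Poisson 95% intervals. Ratios used CPM + 1 over genes with at least 10 CPM in a line. Shares of cells were given after thinning to 1000 UMIs and spreads after thinning to 3000. Doublets were not called. Intervals cover counting error only, and a count of 0 was taken to allow 3 counts. Gene positions came from GENCODE M39, where 32953 of 33565 identifiers were found. Near-identical copies were transcripts of at least 95% identity over at least 89 bases, the read length. The calculation of levels was tested on simulated data. The work used pandas 2.3.3, scipy 1.17.1, numpy 2.4.6 and matplotlib 3.10.9 in Python 3.11.15.

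The members and lists were chosen with earlier results of these data known. Named were the 10 members, other genes of the families with at least 10 CPM in a line, up to 4 genes per list with the widest range between lines, and the 3 or 5 nearest genes by likeness. S100a3, S100a5, S100a8, S100a9 and the genes that overlap or copy a member were named after their values were seen. The cell calling rule, the minimum depth, the barcodes used, the denominator, the pseudocount, the filter, the thinning depth and the BC1 sequences used were varied. The pooled matrix holds the same reads and was used only as an alternative. The level of 1 gene of the calcium sensor list and 1 promoter sequence are not reported here.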

Additional observations from a re-analysis of the deposited data

How the results depend on the processing

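The counts of 9 genes highest and 8 genes at least 4-fold higher in NIH/3T3 cells were the same under every alternative run, as was the count of 9 by BC1 sequence, and the order of the lines was kept in 70 of 70 combinations of gene and alternative. Of 210 alternative levels, 30 left the counting interval and 1 moved by over 1.5-fold, S100a4 in mESCs with all barcodes (10.1 CPM). The summed level left its interval with all barcodes (1403 CPM in N2a, 279.7 CPM in mESCs), without the 5% of cells with the most UMIs (1458 CPM in N2a, 9888 CPM in NIH/3T3), as a mean of the CPM of each cell (1447 and 9924 CPM), and without mitochondrial and ribosomal protein genes in the total, which removes part of the denominator (1569 CPM in N2a, 11077 CPM in NIH/3T3, 291.2 CPM in mESCs). The share of cells with a UMI rises with the thinning depth by construction, and the variance over mean of Anxa1 in NIH/3T3 cells was 1.33 at 1000 UMIs per cell. Within 3 equal parts of the NIH/3T3 cells by ribosomal protein UMIs, chosen after seeing the data, the r of S100a4 with S100a6 was 0.259, 0.114 and 0.196 and that of S100a6 with Lgals1 0.211, 0.103 and 0.151. The cause was not tested. No paired analysis was possible because each line was 1 sample. With 1 sample per line, differences between lines include any between cultures, and levels under 10 CPM rest on few UMIs.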

Other observations

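Most mESCs carried the pluripotency gene Zfp42, and 14 of the 1574 mESCs with at least 3000 UMIs had no UMI of it. In these 14 cells the 10 genes summed to 472.9 CPM (95% interval 321.3 to 671.2, 31 UMIs) against 262.5 CPM (253.1 to 272.2) in the other 1560, and Lgals1 had 213.6 CPM (116.8 to 358.3, 14 UMIs) against 75.4 CPM (70.4 to 80.7). The other 5 pluripotency genes summed to 1937 CPM against 3287 CPM, and 11 primitive endoderm genes to 198.3 CPM (105.6 to 339.1) against 121.1 CPM (114.7 to 127.7). The fibroblast list had 15.3 CPM (0.386 to 85.0, 1 UMI) in the 14 cells against 5.66 CPM (4.35 to 7.24). These cells were shallower, with a median of 3780 UMIs against 5998, and the part of depth was not tested. Of the primitive endoderm list, 7 of 11 genes reached 10 CPM in a line and 5 of these were highest in NIH/3T3 (33.4% of all genes). All 5 were also at least 4-fold higher there (5.3% of all genes). The sum of this list thus also counts genes high in fibroblasts, and nothing is read from it.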
